A study of Mus musculus with 22 samples.

Results

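The mRNAs of 9 genes that limit signalling from G protein-coupled receptors were followed across arterial smooth muscle cells of 7 mouse tissues. The 9 genes, taken by symbol from a table of 28099, were Rgs2, Rgs3, Rgs4, Rgs7bp, Rgs10, Rgs12, Rgs14, Rgs16 and Rgs19. They comprise regulators of G protein signalling (RGS) other than Rgs5, together with a membrane anchor of such proteins. All 9 were in the table once, and 8 of 9 passed the filter on low values. The cells had been isolated as arterial smooth muscle cells from aorta, heart, lung, kidney, bladder, stomach and intestine, with 3 libraries per tissue and 4 for intestine. The mice carried Cspg4-Dre/Acta2-CreERT/R26-GFP, except that the heart mice carried Cspg4-DreERT/Acta2-CreERT/R26-GFP, so heart and its genotype cannot be told apart. In this design recombinases driven from the Cspg4 and Acta2 genes, active in mural cells and in smooth muscle, mark the cells with GFP. All groups were given tamoxifen for 3 days (0.75 mg for each 10 g of body weight), and no untreated group was analysed. The labels give no age, strain or sex. Nor do they tie each library to its own mouse, so the p-values rest on a spread between libraries that may be technical.

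G protein-coupled receptors switch on G alpha subunits by loading them with GTP, and RGS proteins shorten the signal by speeding up the hydrolysis of that GTP. In arterial smooth muscle the Gq class couples vasoconstrictor receptors to phospholipase C, calcium release and contraction, so that RGS proteins acting on Gq can limit constriction. The family falls into groups: R4 proteins are small and act on Gi and Gq, R7 proteins work bound to the beta subunit Gnb5 and to an anchor, R12 proteins act on Gi, and RZ proteins on Gi and the related Gz.

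Sequence upstream of the annotated start is shown for Rgs2, Rgs4, Rgs7bp and Rgs10, the 4 members with the most tissue pairs past the threshold used below, at 13, 9, 13 and 10 of 21. The stretches are RefSeq sequence of build GRCm38.p6, 250 bases each, ending just before the start and written along the gene's own strand. The expression table uses build mm39, whose coordinates differ. Of the 9 genes, 8 had an entry, with 12 entries in all. Capitals mark TGACG, the core of a cAMP response element, and GGGCGG, the core of a GC box, on either strand, so that CGTCA and CCGCCC are the reverse forms. Rgs2 is from chr1:144004150-144004399 (minus strand), Rgs4 from chr1:169747643-169747892 (minus), Rgs7bp from chr13:105054931-105055180 (minus) and Rgs10 from chr7:128418173-128418422 (minus).
Rgs2: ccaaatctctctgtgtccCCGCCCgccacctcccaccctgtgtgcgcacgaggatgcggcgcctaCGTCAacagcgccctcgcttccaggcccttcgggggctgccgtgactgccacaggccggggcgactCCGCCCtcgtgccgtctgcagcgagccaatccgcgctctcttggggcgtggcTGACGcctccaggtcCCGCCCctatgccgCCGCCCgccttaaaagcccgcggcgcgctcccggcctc
Rgs4: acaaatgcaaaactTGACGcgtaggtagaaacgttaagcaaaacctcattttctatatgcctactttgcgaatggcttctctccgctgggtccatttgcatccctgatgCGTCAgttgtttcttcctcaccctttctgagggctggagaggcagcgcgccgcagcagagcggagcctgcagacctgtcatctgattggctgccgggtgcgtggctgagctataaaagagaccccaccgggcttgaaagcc
Rgs7bp: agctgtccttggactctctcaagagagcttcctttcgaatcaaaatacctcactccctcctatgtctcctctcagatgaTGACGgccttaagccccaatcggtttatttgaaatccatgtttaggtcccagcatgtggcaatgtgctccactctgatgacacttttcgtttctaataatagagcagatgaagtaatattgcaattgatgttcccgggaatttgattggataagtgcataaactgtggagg
Rgs10: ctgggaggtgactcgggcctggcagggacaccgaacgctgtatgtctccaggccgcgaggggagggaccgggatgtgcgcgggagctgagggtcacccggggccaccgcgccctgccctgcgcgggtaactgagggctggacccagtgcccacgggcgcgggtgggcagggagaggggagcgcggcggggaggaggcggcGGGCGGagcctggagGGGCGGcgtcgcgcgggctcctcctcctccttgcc
The 4 stretches differ in base composition. G and C made up 72.4% of the Rgs2 stretch and 76.4% of that of Rgs10, against 53.6% for Rgs4 and 43.2% for Rgs7bp. Rgs2 held 2 copies of TGACG and 4 of GGGCGG, whereas Rgs10 held only GGGCGG, in 2 copies. Rgs4 held 2 copies of TGACG and a TATAAA from 31 to 26 bases before the start, and Rgs7bp held 1 TGACG copy. A CCAAT on either strand occurred in the stretches of Rgs2, Rgs4 and Rgs7bp and in that of Rgs16. Over all 32851 promoters of this length, 17.8% held TGACG, 32.7% GGGCGG, 12.4% TATAAA and 33.8% CCAAT on either strand. None of the 12 entries held TGACGTCA, the full element, found in 1.55% of promoters and containing TGACG, or a CArG box, the serum response factor motif, found in 1.47%. A match here is a string of letters and not a measured binding site.

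The deposited values are a signal scaled per library, in which 1 read was worth between 0.4216 in intestine 3 and 9.4205 in aorta 1. Dividing by that step gave 629456, 1540366 and 1927765 rebuilt reads in aorta 1, 2 and 3 and 817157 in heart 3, against 4389363 to 12708422 in the other 18 libraries. A value of 0 therefore allowed up to 28.3, 12.2 and 9.9 signal, the worth of 3 reads, in the aorta libraries and 24.3 in heart 3, and at most 4.0 elsewhere. These limits cover counting error only. The smooth muscle markers Acta2 and Myh11 were above 0 in all 22 libraries, at 1343 or more for Acta2 and 1379 or more for Myh11. Markers of other cells were present too, and they differed by tissue. Summed over 8 genes, epithelium markers reached 8772 to 11301 in stomach and 5727 to 8200 in intestine but at most 146 in heart. Nephron markers reached 5689 to 18012 in kidney and lung epithelium markers 4205 to 5363 in lung. Leukocyte markers were highest in bladder, at 3011 to 6494. In a bulk library, fewer cells of a type and less RNA per cell cannot be told apart.

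On the scale of mean signal per kilobase of exon over the 7 tissues, Rgs4 was the most abundant of the 9 mRNAs at 810, next to 965 for Rgs5. Rgs2 followed at 316, then Rgs7bp at 110, Rgs10 at 101, Rgs19 at 98.1 and Rgs16 at 68.2. The long genes Rgs3 and Rgs12 were at 23.6 and 18.5, and Rgs14 was at 0.6. Each tissue was then compared with the unweighted mean of the other 6, using limma-trend on log2(signal + 1) over the 16917 genes that reached a signal of 10 in 3 or more libraries. Fold changes are log2 values on this scale, and an adjusted p under 0.05 after Benjamini-Hochberg adjustment over all genes was the threshold. For genes with few reads their size depends on the added 1, which shrinks changes between low values and enlarges those against a library at 0. Rgs2, Rgs3, Rgs4, Rgs7bp, Rgs10 and Rgs12 varied among the tissues by limma's F test, that is 6 of 8, against 59.6% of all genes tested. Of 56 combinations of gene and tissue 20 passed, 10 higher and 10 lower, that is 35.7%, against 21.5% of all such combinations. Of 168 combinations of gene and tissue pair 61 passed (36.3%), against 20.9% of all.

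**Figure D1:**
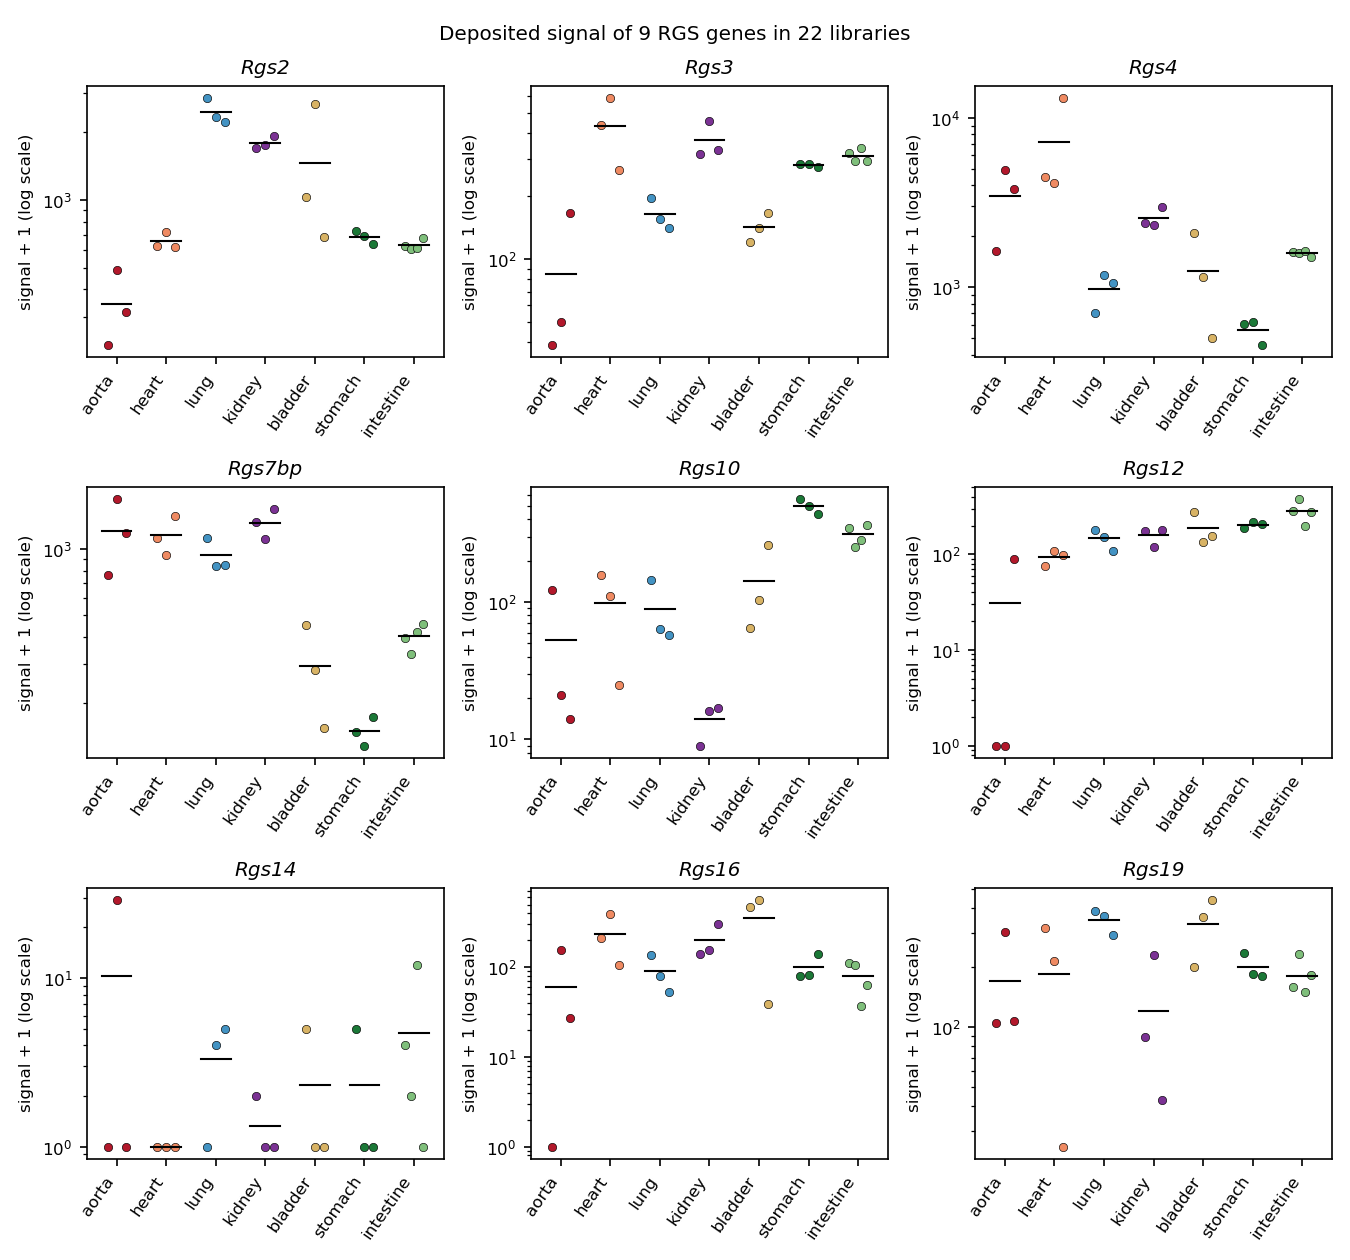
Deposited signal plus 1 (log scale) of each of the 9 genes in every library, by tissue; points are libraries (4 for intestine, 3 for each other tissue) and lines are tissue means. Rgs2 is highest in lung and kidney, Rgs7bp is at 763 to 1686 in aorta, heart, lung and kidney, and Rgs10 is highest in stomach at 439 to 560.

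The members whose mRNA passed the threshold differed by tissue, although some passed in several tissues. In aorta 5 of 8 fell (Rgs2, Rgs3, Rgs10, Rgs12 and Rgs16) and Rgs4 and Rgs7bp rose, where 42.8% of all genes fell and 9.15% rose. The median over the 8 members in aorta was −1.71, against −1.04 over all genes tested. In heart Rgs3, Rgs4 and Rgs7bp rose, against 6.03% of all genes, and no member fell, against 12.4%. In kidney Rgs2 and Rgs7bp rose, against 6.35%, and Rgs10 fell, against 4.11%. In lung only Rgs2 of the 8 rose, against 4.43%, and none fell, against 3.48%. In stomach Rgs10 rose, against 13.4%, while Rgs4 and Rgs7bp fell, against 6.93%. In intestine Rgs10 rose, against 15.5%, and Rgs7bp fell, against 9.97%. In bladder Rgs7bp fell, against 7.4%, and none rose, against 8.31%. Outside aorta the medians over the members lay between −0.08 in intestine and 0.83 in kidney, against −0.19 to 0.34 over all genes.

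**Figure D2:**
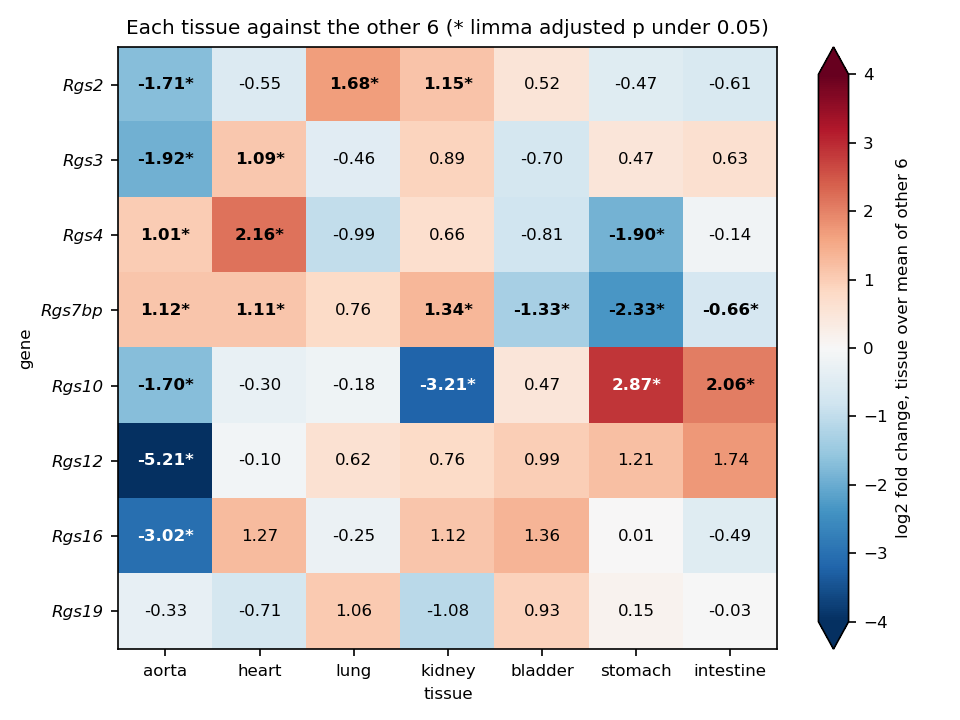
Log2 fold change of each tissue over the unweighted mean of the other 6 (columns) for the 8 genes tested (rows), from limma on log2(signal + 1); asterisks and bold type mark an adjusted p under 0.05 and colours are capped at 4. Rgs7bp passes in 6 of 7 tissues and Rgs19 in none.

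Rgs2 was highest in lung and kidney and lowest in aorta. It encodes a regulator selective for Gq, known for limiting vasoconstrictor signals and for the high blood pressure of mice that lack it. The gene (ENSMUSG00000026360) lies on mm39 chromosome 1, 143875076 to 143879899, on the minus strand. Its signal was 2834, 2347 and 2214 in lung and 1703, 1757 and 1922 in kidney, against 226 to 2678 in the other 16 libraries. Only bladder 2, at 2678, reached the lung values, and the other bladder libraries had 1030 and 681. Heart had 624, 718 and 615, stomach 723, 691 and 634, and intestine 620, 603, 613 and 679, so that these 3 tissues overlapped closely. Aorta had 226, 486 and 317, below every one of the other 19 libraries, as did 3.45% of all genes tested. Rgs2 rose in lung (2465 ± 326 against 927 for the mean of the other tissues, log2 fold change 1.68 ± 0.26 SE, limma adjusted p = 0.000384). It also rose in kidney (1794 ± 114 against 1039, 1.15 ± 0.26, limma adjusted p = 0.00628) and fell in aorta (343 ± 132 against 1281, −1.71 ± 0.26, limma adjusted p = 4.66e-05). Lung and kidney did not differ by the threshold (0.45 ± 0.34, limma adjusted p = 0.44), nor did kidney and bladder (0.54 ± 0.34, limma adjusted p = 0.378). Without kidney 3 the kidney value was 1.10 with an adjusted p of 0.0609, and with voom on the rebuilt reads the aorta value was −1.52 with an adjusted p of 0.071. Without the 3 aorta libraries the lung and kidney changes were 1.43 and 0.89 and still passed, and the values in intestine (−0.92), heart (−0.86) and stomach (−0.78) passed as well.

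Rgs2 is known to respond fast to stimuli in many cells, and immediate early genes were read beside it. Of 14 immediate early and stress genes 10 rose in aorta, against 9.15% of all genes, and 6 in heart, against 6.03%. Their summed signal was 53816 to 107309 in aorta and 39644 to 162373 in heart. In kidney and lung, the tissues with the highest Rgs2 means, it was 25961 to 52428 and 30430 to 35919. In intestine 13 of the 14 fell (17041 to 22012), against 9.97% of all genes, and in stomach 6 fell (21856 to 25814), against 6.93%. The Rgs2 mean was 629 in intestine and 683 in stomach. In bladder, with an Rgs2 mean of 1463, 3 of the 14 rose (40448 to 53405), against 8.31% of all genes. Of the 14 genes, 11 were at 0.5 or more reads per exonic base in 18 or more libraries, near the limit on read number described with Rgs4, and Fos had 2513 to 4408 reads in every library, so the higher sums of the shallow libraries cannot be told apart from their depth. In lung, 6 of 6 lung epithelium markers rose, against 4.43% of all genes. In kidney 8 of 8 nephron markers rose, against 6.35%, among them Slc12a1 at 787 to 5538 and Umod at 966 to 3438. The part of these cells in the Rgs2 values was not tested, nor was that of a fast response to stimuli.

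Rgs4 was highest by mean in heart, followed by aorta and kidney, which overlapped, and was lowest in stomach. It encodes a short-lived R4 regulator of Gi and Gq. The gene (ENSMUSG00000038530, chromosome 1, 169569046 to 169575211, minus strand) had a signal of 4450, 4096 and 13024 in heart and 1630, 4925 and 3805 in aorta, against 2403, 2311 and 2974 in kidney. Intestine held 1607, 1591, 1629 and 1501. Bladder had 2080, 1153 and 502, lung 704, 1176 and 1052, and stomach 606, 618 and 457. The heart libraries overlapped only those of aorta, and stomach overlapped bladder 3. Rgs4 rose in heart (7190 ± 5055 against 1730, log2 fold change 2.16 ± 0.35, limma adjusted p = 0.000367) and fell in stomach (560 ± 89.7 against 2835, −1.90 ± 0.35, limma adjusted p = 0.000581). It rose by 1.01 ± 0.35 in aorta (3453 ± 1675 against 2353, limma adjusted p = 0.0231). The high SD in heart came from heart 3, a library of 817157 reads in which the 13024 signal stood for 1610 reads. Without heart 3 the heart change was 1.62 and still passed (limma adjusted p = 0.00905). The aorta change was 0.68 without aorta 2 (adjusted p = 0.181), 0.87 without aorta 3 (adjusted p = 0.0928) and 1.31 with array weights (adjusted p = 0.101). No neighbouring pair in the order heart, aorta, kidney, intestine, bladder, lung, stomach passed, and the smallest adjusted p among them was 0.139, for heart over aorta. Heart over kidney (1.28 ± 0.46, limma adjusted p = 0.0909) and aorta over intestine (0.98 ± 0.43, limma adjusted p = 0.0633) did not pass either.

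The Rgs4 values carry a limit set by read number. In these libraries the reads of abundant genes came near a common level per base whatever the depth. Myl9, a smooth muscle myosin light chain, had 1885 to 2303 rebuilt reads in every library, although depth ran from 629456 to 12708422. Where this holds, signal follows the worth of 1 read. A level of 0.5 reads per exonic base, reached in at least 1 library by 2786 of the 16601 tested genes whose length was known, was taken as near it. Rgs4 did so in 12 libraries (all of heart, kidney and intestine, bladder 1 and lung 2), with 1.64, 1.73 and 0.52 in heart 1, 2 and 3 and 1.70 in kidney 1. In stomach it was at 0.29, 0.35 and 0.32, and in aorta at 0.06, 0.39 and 0.37. Rgs2 did so in 6 libraries, the 3 of lung, kidney 1 and 2 and bladder 2, with a highest value of 1.03 in kidney 1. Rgs10 did so in 2, stomach 2 and 3, and the other members in none.

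**Figure D3:**
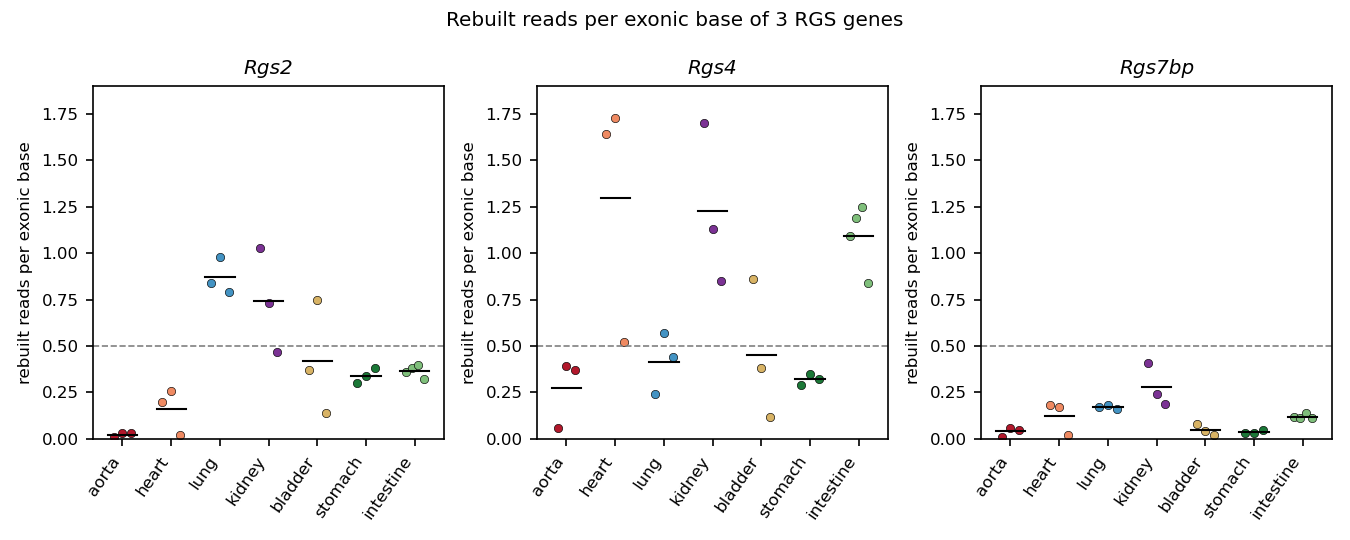
Rebuilt reads per exonic base of Rgs2, Rgs4 and Rgs7bp in every library, by tissue; points are libraries, lines are tissue means and the dashed line marks 0.5. Rgs4 lies above the dashed line in 12 libraries and Rgs2 in 6, while Rgs7bp stays at or below 0.41.

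Rgs4 lies beside Rgs5, a pericyte marker and R4 regulator, on chromosome 1. The genes are 45.7 kb apart on opposite strands, and no other gene of the table lies between them. Rgs5 also rose in heart (6788, 6120 and 32601 in heart against 412 to 8095 in the other 19 libraries, log2 fold change 2.55 ± 0.49, limma adjusted p = 0.00152). Without heart 3 the change was 1.77 and still passed (limma adjusted p = 0.0356). Rgs5 was at 0.5 or more reads per exonic base in 15 libraries, with 1.70, 1.76 and 0.89 in heart, so its signal carries the same limit as that of Rgs4. In lung Rgs5 fell (465 to 591, −2.60 ± 0.49, limma adjusted p = 0.00239), where Rgs4 was 0.99 lower without passing (−0.99 ± 0.35, limma adjusted p = 0.093). The difference between the genes was not tested. In heart, 7 of 12 endothelial markers and 5 of 7 cardiomyocyte markers rose as well, against 6.03% of all genes, and the endothelial marker Plvap fell. Their summed signals in heart were 8980 to 9883 for endothelial and 2797 to 4416 for cardiomyocyte markers. Elsewhere endothelial sums were 7321 to 13365 in kidney, and cardiomyocyte sums 3027 to 3231 in lung and 4991 in aorta 3. The part of these cells in the heart values was not tested.

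Rgs3 and Rgs16 are the other R4 members, and both were low in aorta. Rgs3 (ENSMUSG00000059810, chromosome 4, 62478084 to 62622238, plus strand) encodes a regulator of Gi and Gq made in long and short forms, which gene-level values cannot separate. Its signal was 38, 49 and 165 in aorta, from as few as 4 reads, against 439, 587 and 267 in heart and 317, 459 and 330 in kidney. Intestine had 294 to 338 and stomach 276 to 285, and lung and bladder were lower, at 140 to 195 and 120 to 165. Aorta 1 and 2 lay below all other libraries, while aorta 3 lay within the lung and bladder range. Rgs3 fell in aorta (84.0 ± 70.4 against 283, log2 fold change −1.92 ± 0.32, limma adjusted p = 0.000127), a change that passed in each alternative run. It rose in heart (431 ± 160 against 225, 1.09 ± 0.32, limma adjusted p = 0.0238), where leaving out heart 1 or heart 2 gave 1.04 and 0.83 with adjusted p of 0.0755 and 0.123. The noncoding gene Gm11209 overlaps Rgs3 on the other strand and averaged 0.64 signal, and the kit does not keep strand.

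Rgs16 (ENSMUSG00000026475, chromosome 1, 153616095 to 153621214, plus strand), an inducible regulator of Gi and Gq, varied widely within tissues. Bladder held 468, 557 and 38, heart 211, 388 and 105, and kidney 140, 156 and 302. Aorta held 0, 154 and 26, and lung, stomach and intestine lay between 36 and 141. The F test did not pass (limma adjusted p = 0.127). The aorta value passed (60.0 ± 82.4 against 176, −3.02 ± 0.96, limma adjusted p = 0.0145) but rested on aorta 1, where 0 reads allowed up to 28.3 signal. Without aorta 1 it was −1.01 (adjusted p = 0.308), and on rebuilt reads it was −1.09 with edgeR (adjusted p = 0.267), −1.19 with DESeq2 (adjusted p = 0.147) and −2.06 with voom (adjusted p = 0.153). Array weights gave −1.97 (adjusted p = 0.425).

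Rgs7bp passed the threshold in 6 of 7 tissues, the most of the 8 genes tested. It encodes the palmitoylated anchor that holds R7 proteins and Gnb5 at the plasma membrane, and it has no RGS domain of its own. The gene (ENSMUSG00000021719, chromosome 13, 105082412 to 105191438, minus strand) had 763, 1686 and 1186 in aorta, 1119, 938 and 1416 in heart, 1128, 836 and 850 in lung and 1324, 1113 and 1525 in kidney. Intestine had 393, 333, 418 and 458, bladder 450, 280 and 153, and stomach 146, 127 and 171. All 12 libraries of aorta, heart, lung and kidney thus lay above all 10 of intestine, bladder and stomach, a split chosen after the values were seen and not tested. The share of all genes with such a gap was not counted. Rgs7bp rose in kidney (1321 ± 206 against 692, log2 fold change 1.34 ± 0.25, limma adjusted p = 0.00143), aorta (1212 ± 462 against 710, 1.12 ± 0.25, limma adjusted p = 0.00154) and heart (1158 ± 241 against 719, 1.11 ± 0.25, limma adjusted p = 0.0053). It fell in stomach (148 ± 22.1 against 887, −2.33 ± 0.25, limma adjusted p = 1.36e-06) and bladder (294 ± 149 against 863, −1.33 ± 0.25, limma adjusted p = 0.0012). In intestine it was 400 ± 52.4 against 845 and passed narrowly (−0.66 ± 0.22, limma adjusted p = 0.036). In the order of levels the step from lung to intestine passed (1.22 ± 0.31, limma adjusted p = 0.00826), and kidney, aorta, heart and lung did not differ from the next in order by the threshold. In pairs with stomach, all 6 other tissues but bladder passed, the bladder value being 0.86 ± 0.33 (limma adjusted p = 0.0879).

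The stomach, bladder and kidney changes of Rgs7bp passed in each alternative run. Those of heart and aorta each lost the threshold once, at 0.95 without heart 3 (adjusted p = 0.0564) and 1.33 with array weights (adjusted p = 0.0741). The intestine change lost it in 10 of 32 alternatives, with values from −0.46 to −0.75 over all of them. Smooth muscle markers differed by tissue too. Of 10 such markers 7 rose in aorta and 5 in heart, against 9.15% and 6.03% of all genes. In bladder 7 of these markers fell, in intestine 7 and in stomach 4, against 7.4%, 9.97% and 6.93%. Their summed signal was 60574 to 88723 in aorta and 27979 to 104984 in heart, against 24906 to 29200 in lung, 21097 to 35657 in kidney and 11689 to 21119 in bladder, stomach and intestine. Heart 1 and 2 had 27979 and 28062, so the high end of heart came from heart 3 alone. Of the 10, 4 were at 0.5 or more reads per exonic base in 18 or more libraries, and Acta2 had 1925 to 3775 reads in every library, so the higher sums of the shallow aorta libraries and heart 3 cannot be told apart from their depth. None of the 10 was at 0 throughout any tissue, and their part in the Rgs7bp values was not tested.

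The R7 genes, whose proteins Rgs7bp anchors, differed from each other in the tissue of their highest mean. Rgs7bp had its highest mean in kidney, but kidney did not differ by the threshold from aorta (0.19 ± 0.33, limma adjusted p = 0.68). Nor did it differ from heart (0.20 ± 0.33, limma adjusted p = 0.771) or lung (0.50 ± 0.33, limma adjusted p = 0.374). Of the 4 genes, Rgs6 had 257, 450 and 410 in lung, against 63 to 332 in the other libraries outside aorta and 9, 4 and 0 in aorta. It rose in lung (372 ± 102, log2 fold change 2.22 ± 0.50, limma adjusted p = 0.00943) and fell in aorta (4.3 ± 4.5, −5.51 ± 0.50, limma adjusted p = 1.81e-07). The aorta libraries lay below all others for Rgs6, as they did for 3.45% of all genes tested. Rgs7 had 28, 442 and 377 in aorta and 113, 194 and 196 in lung, against 0 to 68 in the other tissues. It rose in both (3.45 ± 0.92, limma adjusted p = 0.00478, and 3.40 ± 0.92, limma adjusted p = 0.0269) and fell in kidney, at 0, 7 and 0 (−4.02 ± 0.92, limma adjusted p = 0.00679), although not past the threshold without kidney 1 or kidney 3 (−3.52 each, adjusted p of 0.086 and 0.0856). In aorta Rgs6 and Rgs7 thus went opposite ways. Rgs9 was highest in intestine, with 106, 98, 80 and 95 against 0 to 60 elsewhere, and rose there (a gap between the libraries shared by 3.27% of all genes tested, 3.37 ± 0.51, limma adjusted p = 6.77e-05). Rgs11 was highest in stomach, with 512, 530 and 485 against 0 to 103 elsewhere, and rose there (a gap between the libraries shared by 6.89% of all genes tested, 4.23 ± 1.04, limma adjusted p = 0.00633).

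By tissue mean Rgs7 was thus highest in aorta, Rgs6 in lung, Rgs9 in intestine and Rgs11 in stomach. Their obligate partner Gnb5 did not pass the F test. Its tissue means ran from 220 ± 1.5 in stomach to 483 ± 74.3 in bladder (limma adjusted p = 0.0784). In stomach, where Rgs7bp was lowest, Rgs11 was highest. Epithelium markers were also highest in stomach and intestine, and their part in the Rgs9 and Rgs11 values was not tested. In aorta Rgs9 and Rgs11 also fell, at 0, 4 and 0 for Rgs9 and 0, 0 and 99 for Rgs11. All but the 99, which stood for 30 reads, are within what 3 reads allow there. The Rgs11 value was −2.57 without aorta 1 or without aorta 2 (adjusted p of 0.0848 and 0.0806) and −0.80 with edgeR (adjusted p = 0.431). The lung change of Rgs7 did not pass without lung 1, 2 or 3 (adjusted p of 0.0941, 0.131 and 0.129), nor that of Rgs6 without lung 2 or 3 (adjusted p of 0.0816 and 0.0689). With array weights Rgs7 in aorta was 3.90 (adjusted p = 0.148) and Rgs9 in aorta −3.05 (adjusted p = 0.0912). The intestine change of Rgs9 and the stomach change of Rgs11 passed in each alternative run.

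**Figure D4:**
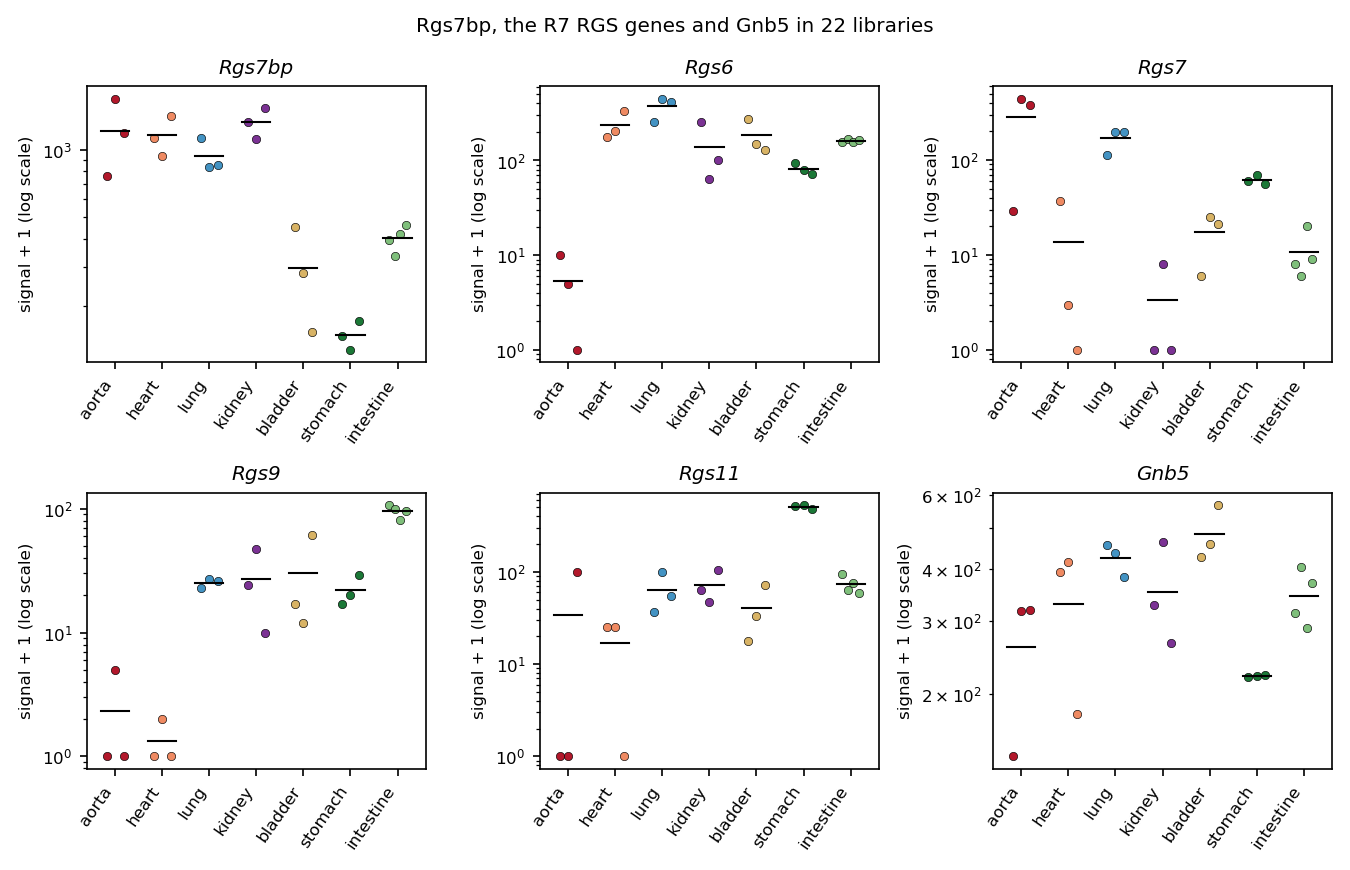
Deposited signal plus 1 (log scale) of Rgs7bp, the R7 genes Rgs6, Rgs7, Rgs9 and Rgs11, and their partner Gnb5 in every library, by tissue; points are libraries and lines are tissue means. Rgs11 is at 485 to 530 in stomach, where Rgs7bp is at 127 to 171.

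Rgs10, the smallest R12 regulator and one best known from immune cells, was highest in stomach and intestine and lowest in kidney. The gene (ENSMUSG00000030844, chromosome 7, 127975345 to 128020482, minus strand) had 560, 504 and 439 in stomach and 348, 251, 282 and 366 in intestine, against 8 to 258 in the other 15 libraries. All 3 stomach libraries lay above every other library, as did 6.89% of all genes tested, and the intestine libraries overlapped only bladder 3, at 258. At the low end were kidney, with 8, 15 and 16, and aorta, with 122, 20 and 13. These came from 18, 23 and 14 reads in kidney and from 13, 5 and 4 in aorta, so the aorta values are close to the limit of 3 reads. Rgs10 rose in stomach (501 ± 60.6 against 117, log2 fold change 2.87 ± 0.58, limma adjusted p = 0.00132) and intestine (312 ± 54.3 against 149, 2.06 ± 0.52, limma adjusted p = 0.00615), and fell in kidney (13.0 ± 4.4 against 199, −3.21 ± 0.58, limma adjusted p = 0.000925). All 3 of these changes passed in each alternative run. The aorta value (51.7 ± 61.0 against 192, −1.70 ± 0.58, limma adjusted p = 0.0207) did not pass with edgeR, DESeq2, voom or array weights, nor without aorta 2 (−1.37, adjusted p = 0.107) or aorta 3 (−1.08, adjusted p = 0.162). Stomach and intestine did not differ by the threshold (0.69 ± 0.71, limma adjusted p = 0.927).

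Rgs10 was highest in the tissues with the most epithelium marker signal, and leukocyte markers were low in stomach. In stomach 6 of 8 epithelium markers rose, against 13.4% of all genes, and in intestine 7 of 8, against 15.5%. Cdh1 was at 2856 to 3826 in stomach and 832 to 1433 in intestine, and Krt19 at 1242 to 1759 and 1063 to 1502. Bladder 3, the bladder library with the most Rgs10, had an epithelium sum of 4201, against 539 and 560 in the other bladder libraries, and also the highest leukocyte sum of the 22 libraries, 6494, against 4378 and 3011. In kidney, where Rgs10 was lowest, 4 of 8 epithelium markers rose, against 6.35% of all genes. The epithelium sum of kidney was 502 to 2211, above the 38 to 146 of heart, where Rgs10 was at 24 to 157. The part of epithelial cells or leukocytes in the Rgs10 values was not tested. Leukocyte markers had a summed signal of 351 to 400 in stomach and 648 to 1218 in intestine, against 3011 to 6494 in bladder. In bladder 9 of 12 tested rose, against 8.31% of all genes, and Cd74, which was not among the 9, was at 1158 to 2486. The leukocyte sums of heart, 679 to 1303, and kidney, 226 to 1219, were like those of intestine. Ptprc, the leukocyte marker CD45, was at 0 to 13 in stomach and 0 to 5 in intestine, and Cd3e was at 0 in all 3 stomach libraries. Such values were not particular to these tissues. Ptprc means were 0.0 in heart, 3.0 in aorta, 9.0 in lung and 16.7 in kidney, against 102 in bladder. Cd3e was also at 0 in all libraries of aorta, heart and kidney. Other leukocyte markers were present in intestine, where Itgam rose and Cd74 was at 463 to 1016, against 166 to 271 in stomach. The noncoding gene Gm15503 overlaps Rgs10 and averaged 2.18 signal.

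**Figure D5:**
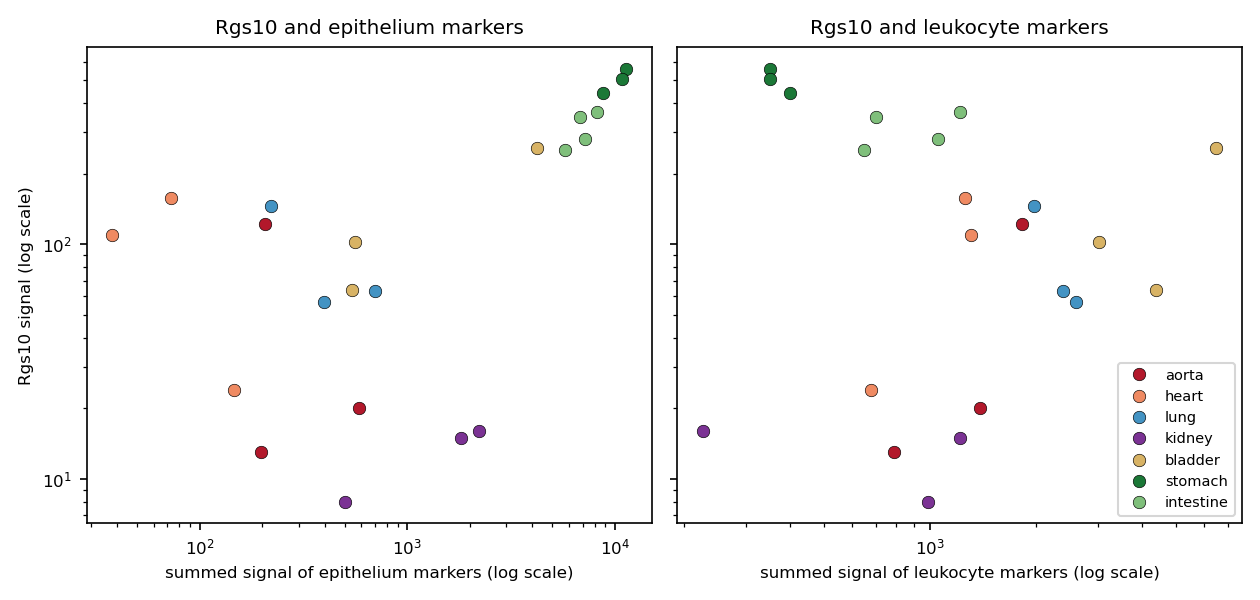
Rgs10 signal (y axis, log scale) against the summed signal of 8 epithelium markers (left) and 14 leukocyte markers (right; both x axes log scale) in 22 libraries, coloured by tissue. Stomach and intestine lie at the top right of the epithelium panel, while stomach, at 351 to 400, lies at the low end of the leukocyte panel.

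Rgs12, a large R12 protein with a further Gi-binding GoLoco motif, was lowest in aorta and highest by mean in intestine. The gene (ENSMUSG00000029101, chromosome 5, 35106789 to 35196988, plus strand) had 0, 0 and 89 in aorta, against 75 to 375 in the other 19 libraries. The zeros allow up to 28.3 and 12.2 signal, the worth of 3 reads in aorta 1 and 2, which is under the lowest value elsewhere. The 89 of aorta 3 overlapped heart, at 75, 108 and 97. Intestine was highest at 284 ± 72.4, and among the 6 other tissues no neighbours in the order of levels passed. Rgs12 fell in aorta (29.7 ± 51.4 against 179, −5.21 ± 0.82, limma adjusted p = 6.58e-05). The size of this value depended on how zeros were treated, being −2.17 with edgeR, −2.20 with DESeq2 and −3.68 with a pseudocount of 5, and −7.38 without aorta 3, all past the threshold. Without the 3 aorta libraries Rgs12 passed as lower in heart (−1.0, limma adjusted p = 0.0064) and higher in intestine (0.89, limma adjusted p = 0.00803), so that it also varied among the other 6 tissues. Rgs14, the brain-enriched R12 relative (ENSMUSG00000052087, chromosome 13, 55517545 to 55532500, plus strand), was at 0 in 13 of 22 libraries and at most 28, in aorta 2, which stood for 7 reads. It did not pass the filter and was not tested.

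Rgs19, an RZ regulator also known as GAIP, passed in no tissue and in none of 21 pairs. The gene (ENSMUSG00000002458, chromosome 2, 181330212 to 181335770, minus strand) had 382, 362 and 289 in lung and 201, 358 and 435 in bladder, against 88, 231 and 42 in kidney and 314, 214 and 24 in heart. Aorta, stomach and intestine lay between 104 and 300, and the ranges overlapped widely, although lung lay above stomach, intestine and kidney. Lung was 1.06 ± 0.56 above the mean of the others (344 ± 49.0 against 198, limma adjusted p = 0.262) and kidney was 1.08 lower (120 ± 98.6 against 235, −1.08 ± 0.56, limma adjusted p = 0.249). Its F test (limma adjusted p = 0.208) passed without heart 3, in which 24 signal stood for 3 reads (adjusted p = 0.0459), under array weights (adjusted p = 0.00621) and without aorta and heart 3 (adjusted p = 0.013).

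Of the 14 other RGS genes, Rgs5 and the R7 genes described above included, 9 were tested and 8 passed the F test, against 59.6% of all genes. Those not yet described were mostly low. Rgs1 and Rgs18, known from lymphocytes and platelets, were highest in intestine (91, 32, 82 and 49, against 0 to 113 elsewhere) and bladder (7, 23 and 58, against 0 to 28 elsewhere). Rgs1 rose in intestine (log2 fold change 3.25 ± 0.85, limma adjusted p = 0.00849) and was listed at 0 in all 3 heart libraries. Rgs13 was highest in stomach, at 53, 64 and 8 against 0 to 15 elsewhere, and rose there (3.77 ± 0.64, limma adjusted p = 0.000238). The part of epithelial cells in the Rgs13 values was not tested. Rgs17 ranged from 0 to 396 and passed in no tissue. Rgs8, Rgs20, Rgs21, Rgs22 and Rgs9bp were not tested, with at most 73 signal in any library.

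Genes of the G protein cycle were read in the same fit. Of 13 G alpha genes 9 passed the F test, against 59.6% of all genes, with Gnai2 and Gna11 the most abundant. Gnai2, a Gi subunit on which most of these regulators act, rose in aorta (4146 ± 898, log2 fold change 0.72 ± 0.18, limma adjusted p = 0.00294) and fell in intestine (1815 ± 237, −0.66 ± 0.16, limma adjusted p = 0.0043) and stomach (1919 ± 212, −0.56 ± 0.18, limma adjusted p = 0.0293). Gna11, the Gq-class subunit, had tissue means from 1257 to 1855 and passed in no tissue, whereas Gnaq fell in aorta (206 ± 161, −1.57 ± 0.43, limma adjusted p = 0.00615). Gnao1 (−2.31) and Gnaz (−2.50) also fell in aorta, and Gnal, the olfactory Gs form, rose in stomach at 22 to 38 signal (2.86). In aorta 7 of 13 G alpha genes fell and 2 rose, where 42.8% of all genes fell and 9.15% rose. The aorta change of Gnaq did not pass in 4 of 30 alternatives (values from −2.22 to −0.62), that of Gnaz in 5 (−3.65 to −0.21) and that of Gnao1 in 2 (−3.32 to −1.22), edgeR and array weights among them each time. Gnai2 was at 0.5 or more reads per exonic base in 18 libraries, Gna11 in 12 and Gnb1 in 18, near the limit on read number, and the Gnai2 change did not pass in stomach in 5 of 32 alternatives and in aorta with array weights. Of 11 tested G beta and gamma genes 9 passed the F test, against 59.6% of all genes. Gnb1, the most abundant, did not (limma adjusted p = 0.791), Gnb2 fell in intestine by 0.47 on the log2 scale, Gng4 and Gng2 fell in aorta (−3.49 and −2.97) and Gng7 fell in heart (−3.17). Gnb2 was at 0.5 or more reads per exonic base in 15 libraries, near the limit on read number. The Gng4 change did not pass with edgeR or array weights, that of Gng2 without aorta 2 and that of Gng7 without heart 3.

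Downstream of Gq, 11 of 11 effector genes passed the F test, against 59.6% of all genes. Plcb4, a phospholipase C beta, rose in lung (1744 ± 115, log2 fold change 1.73 ± 0.30, limma adjusted p = 0.00109), aorta (1565 ± 643, 1.45 ± 0.30, limma adjusted p = 0.000732) and heart (1179 ± 292, 1.03 ± 0.30, limma adjusted p = 0.021), and fell in intestine (168 ± 76.9, −2.34 ± 0.27, limma adjusted p = 1.82e-06), stomach (−0.92, limma adjusted p = 0.0342) and bladder (−0.89, limma adjusted p = 0.0482). The bladder change did not pass in 20 of 32 alternatives, the stomach change in 5, the heart change in 3 and the aorta change with array weights. Like Plcb4, Rgs7bp rose in aorta and heart and fell in intestine and stomach, but it did not pass in lung (0.76 ± 0.25, limma adjusted p = 0.0717) and rose in kidney. Plcb3 and the calcium release channel Itpr3 went the other way in aorta and intestine. Epithelium markers were highest in stomach and intestine, and their part in the Plcb3 and Itpr3 values was not tested. Plcb3 rose in intestine (1738 ± 152, 1.33) and fell in aorta (340 ± 366, −2.18), and Itpr3 rose in stomach (711 ± 138, 5.08 ± 0.92) and intestine (194 ± 24.6, 2.91) and fell in aorta (−3.76). The intestine change of Plcb3 did not pass in 5 of 32 alternatives (0.95 to 1.48), among them leaving out any 1 intestine library. Its aorta change did not pass with array weights or voom, nor that of Itpr3 with array weights. Itpr2 also fell in aorta (−4.25). Prkcd, a protein kinase C, rose in heart (1682 ± 230, 0.96 ± 0.16), and Prkcb rose in bladder (307 ± 226, 5.65 ± 0.92). Leukocyte markers were highest in bladder, and 5 of 8 fibroblast markers rose there too, against 8.31% of all genes. The part of these cells in the Prkcb values was not tested.

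Of 11 tested partners of RGS proteins 8 passed the F test, against 59.6% of all genes. Gipc1, a binding partner of Rgs19, had tissue means from 666 to 1208 and passed in no tissue. Gipc1 was at 0.5 or more reads per exonic base in 16 libraries, near the limit on read number, whereas Rgs19 reached at most 0.24. Gpsm2, a GoLoco protein that binds Gi, rose in aorta (2.14 ± 0.25), lung (1.19) and bladder (0.94) and fell in kidney (−2.60 ± 0.25) and heart (−1.60), and Gpsm3 fell in aorta (−2.49). Without any 1 of the aorta libraries the Gpsm3 change did not pass. Of 14 other proteins with an RGS-type domain 7 passed the F test, against 59.6% of all genes. Arhgef1 and Grk6 were the most abundant, and Axin1 (−4.04), Arhgef11 (−3.32) and Axin2 (−2.70) fell in aorta, where 8 of the 14 fell, against 42.8% of all genes. The Arhgef11 change did not pass in 4 of 30 alternatives (−4.97 to −1.23), namely voom, edgeR, DESeq2 and without aorta 2.

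Across the 22 libraries Rgs4 and Rgs7bp varied together, and Rgs7bp and Rgs10 in opposite directions. Pearson's r was 0.76 for Rgs4 with Rgs7bp (Spearman's rho 0.78) and −0.81 for Rgs7bp with Rgs10 (rho −0.80), and 0.73 and −0.77 in the 18 deeper libraries. These are descriptions over libraries that share tissues and depth. Of protein-coding genes, Hey2, a Notch-responsive repressor of arterial cells, was most like Rgs7bp over 22 libraries (Pearson's r = 0.95, and 0.97 in the 18 deeper), followed by Ppp1r12a, the targeting subunit of myosin phosphatase (0.94 in both). Nearest to Rgs4 were Wtip and Uba2 (0.93 and 0.91), to Rgs2 Cldn1 and Mypop (0.84 and 0.81), and to Rgs3 Car7 and Smagp (0.90 and 0.89). Nearest to Rgs10 were Rrbp1 and Ormdl2 (0.89 and 0.88), and to Rgs19 Orc6 and Yif1a (0.92 and 0.91). Values for Rgs12 with Ascc2 (0.99) and Ndst2 (0.98) were lower in the deeper libraries, at 0.79 and 0.85. For Rgs16 the nearest were Rnf125 and Abcg2 (0.88 each), at 0.60 and 0.62 in the deeper libraries.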

How the data were processed

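Libraries were made with SMART-Seq v4, which keeps no strand, from at most 10 ng of total RNA, per the labels' protocols. Per the submitters' processing notes, DESeq and DESeq2 1.36.0 are named beside featureCounts 2.0.4, STAR 2.7.10a, Trimmomatic 0.39 and Picard 3.0.0, on build mm39. The authors deposited 1 table of signal for 28099 genes in 22 columns, which its values show to be whole numbers scaled within each library. The scaling method is not given in the sources used here. The signal of 1 read was found per library by a likelihood search from 0.3 to 12, and division by it gave rebuilt reads. SMART-Seq v4 reads carry no molecular identifiers, so counting limits cover counting error only. Exonic lengths came from GENCODE M21, matched by gene identifier for 96.2% of genes.

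Signal was tested as log2(signal + 1) with limma-trend (limma 3.58.1, R 4.3.3), for the 16917 genes that reached a signal of 10 in 3 or more libraries. All 22 libraries entered 1 fit of 7 tissue groups taken from the tissue labels, with Benjamini-Hochberg adjusted p under 0.05. Means are given ± SD over 3 libraries, or 4 for intestine, and fold changes ± limma's standard error. Alternatives were a pseudocount of 5, no filter, median-of-ratios scaling, array weights, voom, edgeR 4.0.16 and DESeq2 1.42.0 on rebuilt reads, a replicate block, and left-out libraries. Leaving out the aorta libraries together with heart 3 was chosen after seeing the data. The step search and the limma fit were tested on simulated data.

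The members and the gene lists were chosen with earlier results of these data known. The rule for named genes took all members, all detected other RGS genes, and from each list the 2 with the highest mean, from pathway lists also up to 3 with the largest change past the threshold. From each marker list it also took defining markers at 0, and for each member the 2 protein-coding genes most like it over the 22 libraries. A gene that the rule took from the list of RGS partners is not reported here. Plcb4, Gnaq, Gnb5 and Ptprc were named after their values were seen.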

Additional observations from a re-analysis of the deposited data

How the results depend on the processing

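Over 32 alternatives (30 for aorta, which 2 of them leave out) none of the 20 member contrasts past the threshold changed sign, and 11 of the 20 stayed past it in each alternative run. The contrasts that lost it at least once were Rgs2 in aorta and kidney, Rgs3 in heart, Rgs4, Rgs10 and Rgs16 in aorta, and Rgs7bp in aorta, heart and intestine, and the cause was not tested. Leaving out 1 library at a time gave 9022 to 11478 genes by the F test (10087 with all libraries), 6 to 7 members, 19 to 25 combinations of member and tissue, and 53 to 70 of member and tissue pair. Array weights gave 29 combinations of member and tissue, DESeq2 27, voom 25, edgeR 24 and no filter 19. All of these counts were within 1.5 times of those reported. With the replicate number as a block, which gives intestine 4 a term of its own, the counts were 9093, 6, 19 and 52. The labels do not say whether libraries of the same number share a mouse. Deviations of same-numbered libraries had a median correlation of −0.01 over 63 pairs, against 0.009 over 144 pairs of unlike number. Of the 63, 3 were over 0.1, and 5 of 22 libraries correlated best with their own number. These values cannot exclude pairing, since the spread between libraries may hide it. Low depth limits what the aorta libraries and heart 3 can show of Rgs10, Rgs12, Rgs14 and Rgs16.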
